A study of Mus musculus with 4 samples.

Results

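The 8 troponin genes of the mouse, Tnni1, Tnni2, Tnni3, Tnnt1, Tnnt2, Tnnt3, Tnnc1 and Tnnc2, were followed in primary myotubes treated with EDA-A2. They were chosen by name, as all genes of the fast, slow and cardiac isoforms of troponin I, T and C, a rule that uses no measured value, although earlier results of these data were known when the group was chosen. All 8 were found among the 53647 genes of the count tables, and all 8 were among the 15173 genes tested. Myoblasts were isolated from limb muscles of wild-type (WT) pups 2 to 3 days old and differentiated into myotubes. The treated cells received recombinant EDA-A2, the ligand of the TNF receptor family member EDA2R, at 250 ng/mL for 24 h, and the other condition is labelled control. Both conditions were harvested 72 h after differentiation began, with 2 RNA sequencing libraries each. The study's methods describe sample sizes in general as biological replicates, but the labels do not say whether these libraries of a condition came from separate cultures or animals, so the p-values measure only the spread between these libraries, which may be technical.

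Troponin is the calcium switch of the thin filament of striated muscle. Troponin C binds calcium, troponin I holds back the interaction of actin with myosin when calcium is low, and troponin T ties the complex to tropomyosin. Each subunit has separate genes for fast and for slow or cardiac muscle, and developing skeletal muscle also uses isoforms of adult heart and slow muscle, among them Tnnt2 and Tnni1.

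Counts on genes summed to between 29444155 and 29746863 pairs per library. The control pair differed more than the treated pair, with a chi-square per gene of 9.33 against 4.45, while pairs across conditions gave 14.9 to 20.5. Markers of myotubes summed to 19935 and 18758 CPM (counts scaled to a common library size) in control and 14307 and 14603 CPM in EDA-A2, and 2 of 8 were lower, 1 higher and 5 not past the test. Most of that sum was Myh3 (8001 and 7891 CPM in control, 5407 and 5276 in EDA-A2) and Acta1 (6284 and 5876, then 4019 and 4469), the 2 lower ones. The fusion factor Mymx rose (log2 fold change 1.22, adjusted p = 2.95e-08 by edgeR), while the fusion factor Mymk and desmin, Des, had -0.015 and -0.021 and did not pass. Ckm, Ttn and Myog had -0.36, -0.25 and -0.18 and did not pass either. Of the 8 myotube markers 7 had a negative fold change, and the median was -0.21. Markers of myoblasts summed to 341 and 305 CPM in control and 302 and 295 CPM in EDA-A2, with 1 of 5 lower and 1 higher. None of the 5 markers of dividing cells (715 to 852 CPM) and none of the 5 tested markers of fibroblasts (1598 to 1742 CPM, Lum at 0) passed. Most of the fibroblast sum was Col3a1 (1351 and 1556 CPM in control, 1425 and 1411 in EDA-A2). Col1a1 was uneven in control (313 and 172 CPM, then 158 and 196 in EDA-A2), and Pdgfra, Dcn and Col1a2 were at most 10.2 CPM. Markers of endothelium (0.996 to 1.23 CPM) and macrophages (1.98 to 2.98 CPM) were near 0, and those of smooth muscle ranged from 671 to 871 CPM, with Myh11 at 5 counts in every library and none of the 3 tested past the test. The part of these markers in the results below was not tested.

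Of the 8 troponin genes, 4 were lower in EDA-A2 than in control myotubes and none was higher. Relative to the control mean, Tnni1 (slow troponin I) fell by 25.7%, Tnnc2 (fast troponin C) fell by 24.3%, Tnni2 (fast troponin I) fell by 19.2% and Tnnt2 (cardiac troponin T) fell by 18.9%. Tnnc1, Tnnt1, Tnnt3 and Tnni3 did not pass the test, although all 8 fold changes were negative. Over all genes tested, 2.13% were called lower and 2.45% higher (edgeR quasi-likelihood test, adjusted p under 0.05). In bulk RNA, fewer myotubes and less troponin RNA per myotube cannot be told apart.

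The median log2 fold change of the 8 genes was -0.30, beside -0.0021 over all genes tested. It was -0.016 over the 5688 genes that averaged 1000 normalized counts or more, of which 3.82% were called lower. In all 8 genes both EDA-A2 libraries lay below both control libraries, a pattern that 22.2% of all genes tested showed. With libraries scaled to their total counts, a comparison added after seeing the data, Tnnt1 overlapped, at 873 and 772 CPM in EDA-A2 against 865 and 866 in control, so that 7 of 8 genes were separated, beside 13.8% of all genes. The calls rest on both control libraries: without control replicate 1 or without control replicate 2, edgeR called none of the 8 genes and no gene in the whole table. Without EDA-A2 replicate 1 or EDA-A2 replicate 2, all 8 fold changes stayed negative. The DESeq2 test on all 4 libraries called 5 of the 8 lower, beside 271 genes called lower among the 25545 with a p-value. DESeq2 can leave genes with low counts without an adjusted p, so fewer than 25545 may have been open to a call.

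**Figure D1:**
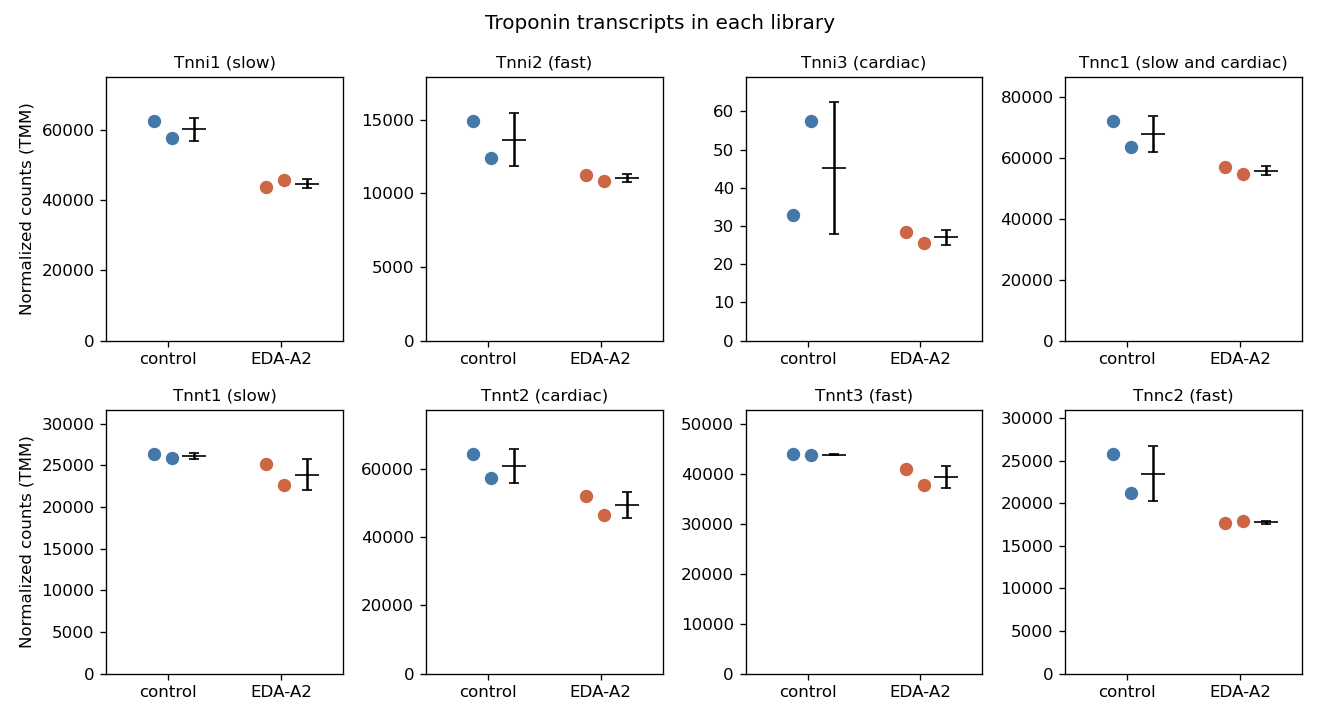
Normalized counts (TMM, vertical axis from 0) of the 8 troponin genes in the 2 control (blue) and 2 EDA-A2 (orange) libraries, with bars for the mean and SD of each condition. Both EDA-A2 points lie below both control points in every panel, and the Tnni3 panel ends below 100 counts.

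**Figure D2:**
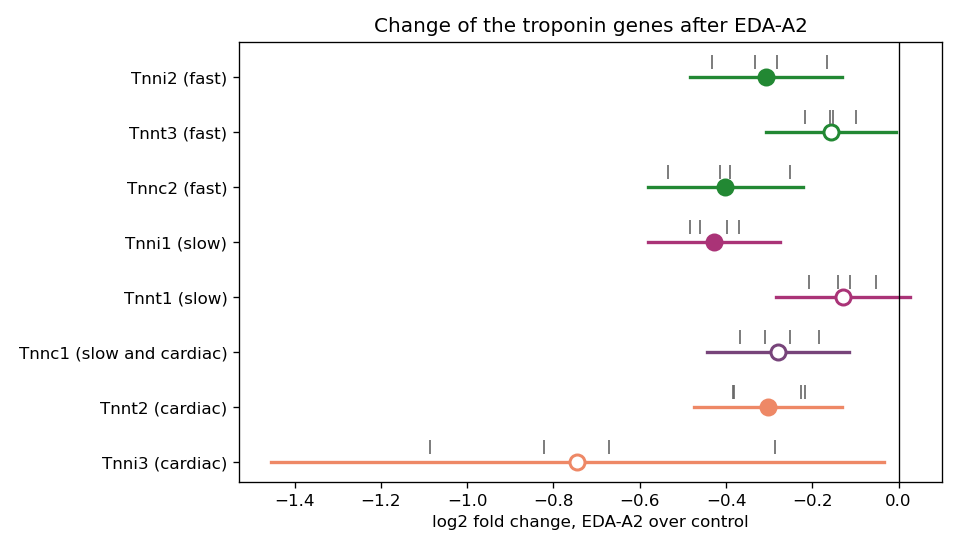
Log2 fold change of each troponin gene, EDA-A2 against control, with its 95% interval as a line and the values without each library in turn as grey ticks. Filled points mark the 4 genes with an adjusted p under 0.05, and all 8 points lie below 0.

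Promoter sequences are shown for the 3 genes with the smallest adjusted p among those with an entry in the promoter table (Tnni1, Tnnc2 and Tnnt2) and for Tnnt1, which had the smallest fold change, so that genes on both sides of the threshold can be read side by side. Each run is the 250 bases before a RefSeq transcript start, 5′ to 3′ on the gene's strand. The table is built on GRCm38.p6, and each sequence was located in GRCm39 by exact match, at chr1:135726909-135727158 on the plus strand (Tnni1), chr2:164621655-164621904 on the minus strand (Tnnc2), chr1:135763822-135764071 on the plus strand (Tnnt2) and chr7:4518975-4519224 on the minus strand (Tnnt1). All 4 windows overlap the annotated gene, since other transcripts begin further upstream, and the RefSeq start of Tnnt2 lies 334 bases from that of its canonical GENCODE transcript. Capitals mark E-boxes (CANNTG, the motif of MyoD and myogenin), M-CAT elements (CATTCC, the motif of TEAD factors), TATA boxes (TATAAA) and kappaB matches, on either strand.
Tnni1: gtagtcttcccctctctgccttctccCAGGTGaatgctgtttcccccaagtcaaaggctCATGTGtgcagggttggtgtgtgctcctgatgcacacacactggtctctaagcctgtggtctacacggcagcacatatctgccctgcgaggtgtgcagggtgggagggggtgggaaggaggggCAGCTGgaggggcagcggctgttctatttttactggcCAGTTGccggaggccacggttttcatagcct
Tnnc2: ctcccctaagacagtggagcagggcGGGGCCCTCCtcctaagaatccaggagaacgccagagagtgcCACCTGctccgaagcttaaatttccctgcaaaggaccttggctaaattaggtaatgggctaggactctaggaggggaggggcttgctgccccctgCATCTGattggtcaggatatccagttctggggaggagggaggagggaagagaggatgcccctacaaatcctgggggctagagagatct
Tnnt2: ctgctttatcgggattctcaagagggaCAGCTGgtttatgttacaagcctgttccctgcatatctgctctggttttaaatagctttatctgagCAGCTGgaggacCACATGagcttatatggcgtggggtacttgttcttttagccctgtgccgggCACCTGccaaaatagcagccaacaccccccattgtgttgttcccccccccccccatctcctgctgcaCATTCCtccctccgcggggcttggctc
Tnnt1: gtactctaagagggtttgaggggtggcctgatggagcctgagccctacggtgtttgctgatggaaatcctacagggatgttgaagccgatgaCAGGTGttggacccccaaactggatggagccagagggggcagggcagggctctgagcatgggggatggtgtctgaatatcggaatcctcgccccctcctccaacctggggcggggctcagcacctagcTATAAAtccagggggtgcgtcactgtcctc

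The promoters of Tnni1 and Tnnt2 held 4 E-boxes each, that of Tnnc2 held 2 and that of Tnnt1 held 1. At least 1 E-box was found in 66.2% of all 32536 promoter windows of the same length, and how many windows held more was not counted. Tnnt2 also had an M-CAT element 27 to 22 bases before the start, and Tnnc1, not printed, had 1 on the opposite strand 58 to 53 bases before the start, beside 12.6% of all windows. The TATA box of Tnnt1 lay 30 to 25 bases before the start (12.3% of all windows), and the kappaB match of Tnnc2 225 to 216 bases before it (7.28%). Tnnc1 and Tnni3 had 2 and 1 E-boxes, and no MEF2 match was found in the 6 promoters (2.89% of all windows). These are matches of letters within these windows and do not show binding. Tnni2 and Tnnt3 had no entry in the table.

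Among the troponin I genes, which encode the inhibitory subunit, the slow and the fast isoform both passed the test. Tnni1 (ENSMUSG00000026418, chr1:135707172-135738727, plus strand, GRCm39) had 62619 and 57923 normalized counts in control and 43869 and 45710 in EDA-A2. Both treated libraries were low and close to each other, and the conditions were far apart. Tnni1 fell from 60271 ± 3321 to 44790 ± 1302 normalized counts (SD, n = 2), a log2 fold change of -0.43 (SE 0.072, 95% interval -0.58 to -0.27, adjusted p = 0.00238 by edgeR). Without control replicate 1 the change was -0.37 (adjusted p = 0.285) and without control replicate 2 it was -0.48 (adjusted p = 0.183).

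Tnni2, the fast isoform (ENSMUSG00000031097, chr7:141995545-141998147, plus strand), had 14908 and 12395 normalized counts in control and 11237 and 10828 in EDA-A2. Control replicate 1 stood above the other 3 libraries, which were closer together. The mean fell from 13651 ± 1777 to 11033 ± 289 (SD, n = 2), and the log2 fold change of -0.31 (SE 0.083, 95% interval -0.48 to -0.13) was just past the threshold, at an adjusted p of 0.0484 by edgeR. It lost its call without any 1 of the 4 libraries, with -0.17 (adjusted p = 0.359) without control replicate 1, -0.43 (0.188) without control replicate 2, -0.33 (0.0821) without EDA-A2 replicate 1 and -0.28 (0.254) without EDA-A2 replicate 2. It also lost it with total counts as the scaling (-0.25, adjusted p = 0.105).

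Tnni3, the troponin I of adult heart (ENSMUSG00000035458, chr7:4521300-4527228, minus strand), was low, with raw counts of 32 and 57 in control and 29 and 26 in EDA-A2. Control replicate 2 alone was high. Its log2 fold change was -0.74 with a wide 95% interval of -1.45 to -0.034 (adjusted p = 0.289 by edgeR). It was -1.09 without control replicate 1 and -0.29 without control replicate 2. It shares 394 exon bases with Dnaaf3 on the same strand, which makes counts this low uncertain. Of the troponin I counts of a library, Tnni3 made up 0.0425% (95% Wilson interval 0.0301 to 0.0600) and 0.0817% (0.0631 to 0.106) in control, and 0.0516% (0.0359 to 0.0740) and 0.0452% (0.0308 to 0.0662) in EDA-A2. The intervals cover counting error only.

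The markers of heart muscle were at or near 0 as well. Nppa and Myl7 had no counts in any library, which allows up to 3 counts each, and Nppb and Ryr2 had at most 1. Myh6, the alpha myosin heavy chain, had 78 and 71 counts in control and 30 and 32 in EDA-A2 (log2 fold change -1.32, adjusted p = 0.00725 by edgeR). Tnnt2, named for the heart, had 47410 to 62401 raw counts in the same libraries.

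Of the troponin T genes, whose products bind tropomyosin, the cardiac isoform passed the test and the slow and fast isoforms did not. Tnnt2 (ENSMUSG00000026414, chr1:135763738-135780315, plus strand), the cardiac and embryonic skeletal isoform, had 64295 and 57390 normalized counts in control and 52082 and 46594 in EDA-A2. The conditions did not overlap, and replicate 1 was the higher library in each. The mean fell from 60842 ± 4882 to 49338 ± 3881 (SD, n = 2), a log2 fold change of -0.30 (SE 0.080, 95% interval -0.47 to -0.13, adjusted p = 0.0450 by edgeR). The call was lost without control replicate 1 (-0.22, adjusted p = 0.408), control replicate 2 (-0.38, 0.240) or EDA-A2 replicate 2 (-0.23, 0.430), and with total counts (-0.25, 0.0968).

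Tnnt1, the slow isoform (ENSMUSG00000064179, chr7:4507567-4519381, minus strand), had 26354 and 25873 normalized counts in control and 25187 and 22582 in EDA-A2. EDA-A2 replicate 1 was close to the control libraries and replicate 2 was lower. The log2 fold change was -0.13 (SE 0.073, adjusted p = 0.446 by edgeR), and its 95% interval of -0.28 to 0.027 included 0. It was -0.21 without EDA-A2 replicate 1 and -0.053 without EDA-A2 replicate 2. Tnnt3, the fast isoform (ENSMUSG00000061723, chr7:142048605-142070280, plus strand), had 43961 and 43786 in control and 40988 and 37740 in EDA-A2, so the control libraries were almost equal and both treated ones lower. Its log2 fold change was -0.16 (SE 0.071, 95% interval -0.31 to -0.0049, adjusted p = 0.299 by edgeR), and it was -0.099 without EDA-A2 replicate 2. Tnnt3 shares 221 exon bases with Prr33 on the opposite strand, which had 16 to 25 counts.

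Troponin C, the calcium sensor, has a fast gene and a gene shared by slow and cardiac muscle. Tnnc2 (fast, ENSMUSG00000017300, chr2:164619075-164621887, minus strand) had 25802 and 21236 normalized counts in control and 17680 and 17935 in EDA-A2. The treated libraries were nearly equal and both lay below the lower control library. The mean fell from 23519 ± 3228 to 17808 ± 179.9 (SD, n = 2), a log2 fold change of -0.40 (SE 0.084, 95% interval -0.58 to -0.22, adjusted p = 0.0114 by edgeR). Without control replicate 1 it was -0.25 (adjusted p = 0.289) and without control replicate 2 it was -0.53 (0.183). Tnnc2 shares 616 of its 897 exon bases with Ube2c on the opposite strand, a gene with 948 to 1191 counts. The strand option of the counting was not given, so the level of Tnnc2 per kilobase and its share of troponin C are uncertain.

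Tnnc1 (ENSMUSG00000091898, chr14:30930232-30933708, plus strand), of slow and cardiac muscle, had 72097 and 63577 normalized counts in control and 57016 and 54701 in EDA-A2. Both treated libraries lay below both controls. The log2 fold change of -0.28 (SE 0.077, 95% interval -0.44 to -0.12) was just short of the threshold, at an adjusted p of 0.0526 by edgeR. DESeq2 called it (-0.28, adjusted p = 0.0112), and so did edgeR with the replicate number as a block (-0.28, 0.0366). Without control replicate 1 it was -0.18.

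Together the 8 genes took 1.02 and 0.944% of the counts on genes in control, and 0.860 and 0.808% in EDA-A2. The 3 fast genes had a median log2 fold change of -0.31, with 2 called, and a range of -0.40 to -0.16. The 5 slow and cardiac genes had a median of -0.30, with 2 called, and a range of -0.74 to -0.13. The fast genes were compared with the slow and cardiac ones through ratios within each library.

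Levels were compared between genes per kilobase of exon, as normalized CPM per kilobase of the union of exons. In control the order was Tnnc1 at 2076 ± 184, Tnnc2 at 886 ± 122, Tnni1 at 566 ± 31.2, Tnnt1 at 370.1 ± 4.82, Tnnt3 at 328 ± 0.926, Tnni2 at 278 ± 36.2, Tnnt2 at 230.3 ± 18.5 and Tnni3 at 0.612 ± 0.235 (SD, n = 2). No neighbours in this order overlapped between control libraries, and the order was the same in EDA-A2. The order depends on the length used. Per kilobase of the longest coding transcript, Tnni1 (1770 ± 97.5 in control) came after Tnnc1 (3178 ± 282), and Tnnt2 (1052 ± 84.4) and Tnnc2 (1038 ± 143) overlapped, while Tnnc1 stayed first and Tnni3 last.

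The question of whether the balance of isoforms shifted was asked with the fast share of each subunit, per kilobase of exon union. Fast Tnni2 made up 32.8 ± 1.67% of troponin I in control and 34.8 ± 1.25% in EDA-A2. Fast Tnnt3 made up 35.3 ± 0.823 and 35.9 ± 0.446% of troponin T, and fast Tnnc2 29.9 ± 1.02 and 28.2 ± 0.798% of troponin C (SD, n = 2). Each subunit was present in both fast and slow or cardiac form in every library. Within troponin T, cardiac Tnnt2 made up 24.8 ± 1.34% in control and 22.8 ± 0.181% in EDA-A2, and slow Tnnt1 39.9 ± 0.521 and 41.3 ± 0.265%. The shares depend on the length used. Per kilobase of the longest coding transcript, Tnnt2 was the largest troponin T in control, at 40.2%, and Tnnt1 the smallest, at 27.5%. Fast Tnni2 then made up 23.6% of troponin I in control.

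**Figure D3:**
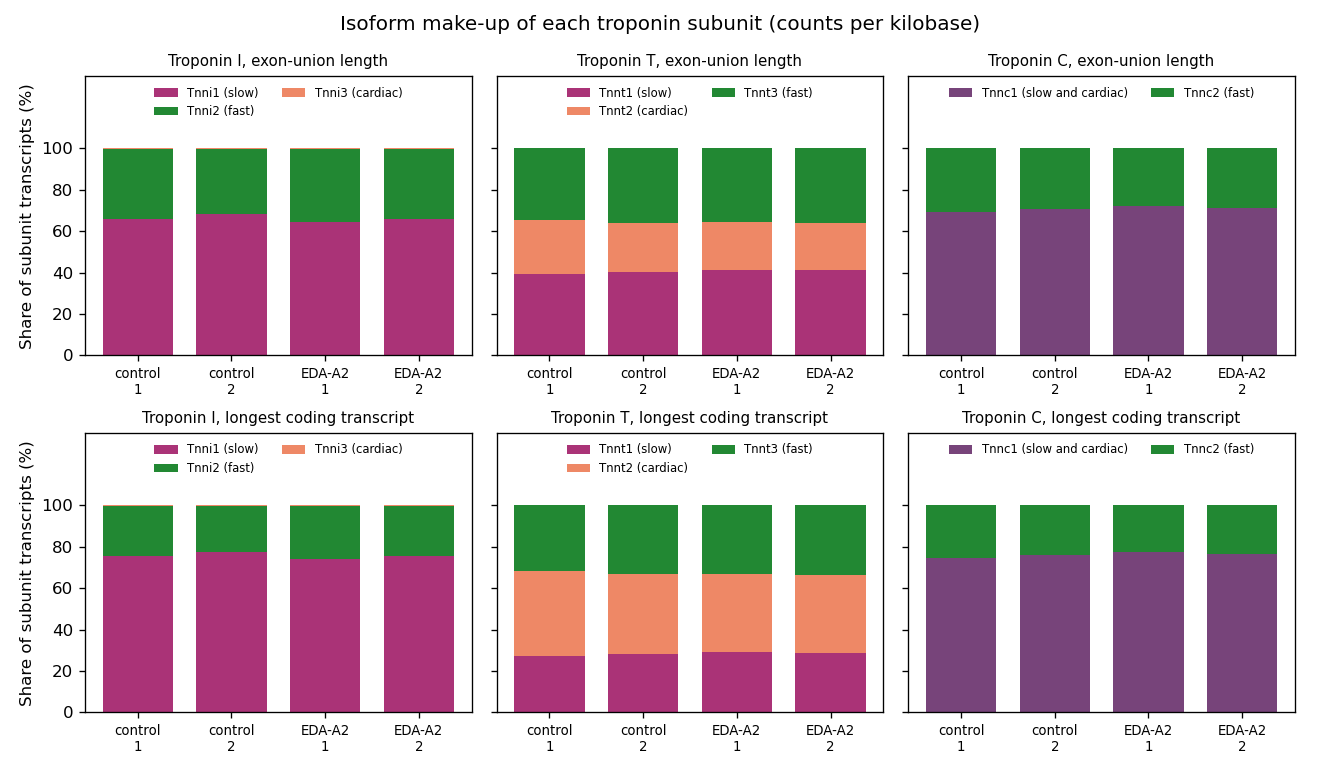
Share (percent, vertical axis) of each isoform in the summed troponin I, T and C of every library, with lengths of the exon union in the upper row and of the longest coding transcript in the lower row. Fast Tnni2 makes up 32.8 and 34.8% of troponin I in control and EDA-A2 by exon union, and Tnnt2 is 24.8% of control troponin T with the 1 length and 40.2% with the other.

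As log2 ratios of the fast gene to the slow and cardiac genes, troponin I was at -0.95 and -1.11 in control and -0.85 and -0.96 in EDA-A2. The libraries overlapped, with a difference of 0.13 ± 0.096 (SE, n = 2, exact two-sided permutation test p = 0.667). Troponin T also overlapped, at -0.91 and -0.83 in control against -0.85 and -0.81 in EDA-A2, a difference of 0.037 ± 0.042 (exact permutation p = 0.667). Troponin C was the only subunit of the 3 whose libraries were separated on this scale, at -1.18 and -1.28 in control and -1.39 and -1.31 in EDA-A2, a difference of -0.12 ± 0.064 (exact permutation p = 0.333). With 2 libraries against 2 the smallest p this test can give is 0.333, so it cannot pass 0.05, and the adjusted p over the 5 ratios tested was 0.667 for each. Over the 3 subunits summed, the ratio was -1.09 and -1.16 in control and -1.17 and -1.14 in EDA-A2, a difference of -0.036 ± 0.037 (exact permutation p = 0.667). Its sign depended on the length, at 0.014 with coding lengths and 0.058 with no length correction. With these the troponin T ratio was 0.073 and 0.091, and its libraries no longer overlapped (exact permutation p = 0.333). With no length correction those of the summed ratio were separated as well, at -1.41 and -1.40 in control and -1.35 in both EDA-A2 libraries (exact permutation p = 0.333).

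Each of these differences moved by over 1.5 times for at least 1 choice of the library left out, though not for every choice. Leaving out control replicate 1 gave 0.20 for troponin I, 9.65e-05 for troponin T, -0.067 for troponin C and -0.0023 for the summed ratio. Leaving out control replicate 2 gave 0.049, 0.074, -0.17 and -0.069 in the same order. Leaving out EDA-A2 replicate 1 gave 0.070, 0.057, -0.077 and -0.020, and leaving out EDA-A2 replicate 2 gave 0.18, 0.017, -0.16 and -0.052.

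The sum of the troponin genes relative to the sum of 14 other thin filament genes was also compared. This log2 ratio was 0.54 and 0.43 in control and 0.58 and 0.46 in EDA-A2, a difference of 0.034 ± 0.080 (SE, n = 2, exact permutation p = 0.667). The libraries of the conditions interleaved, and the sign rested on single libraries, at -0.026 when EDA-A2 replicate 1 was left out and -0.019 when control replicate 2 was, against 0.086 for control replicate 1 and 0.094 for EDA-A2 replicate 2. The 14 genes themselves are described further on.

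A further 7 ratios between members were chosen after the values were seen and are described with no test. The log2 ratio of slow troponin I to slow troponin T, Tnni1 to Tnnt1, was 0.65 and 0.57 in control and 0.21 and 0.42 in EDA-A2, a difference of -0.30 ± 0.117 (SE, n = 2). The ratio of cardiac to slow troponin T, Tnnt2 to Tnnt1, was -0.62 and -0.76 in control and -0.86 in both EDA-A2 libraries, a difference of -0.17 ± 0.069. Tnnt2 to Tnnt3 differed by -0.14 ± 0.082 and Tnnc2 to Tnnt3 by -0.24 ± 0.154. In these 4 ratios the conditions did not overlap. Summed over isoforms, troponin I to troponin T differed by -0.20 ± 0.099 and troponin I to troponin C by -0.074 ± 0.038, again without overlap, while troponin T to troponin C overlapped, at 0.13 ± 0.095.

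**Figure D4:**
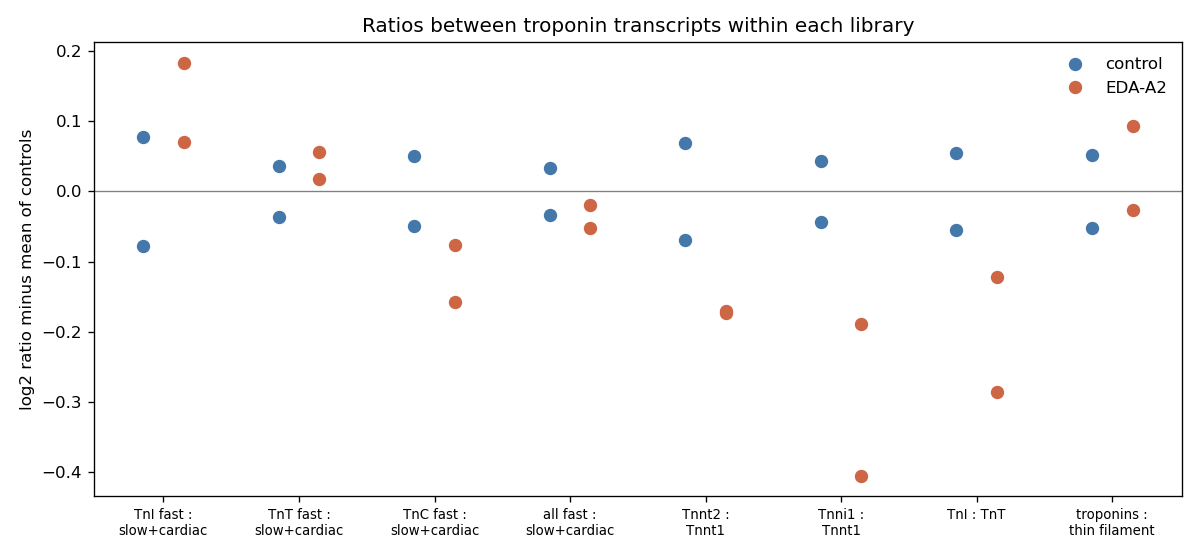
Log2 ratio minus its control mean (vertical axis, per kilobase of exon union) for 8 of the 12 ratios, with a point for each control (blue) and EDA-A2 (orange) library. The conditions separate for troponin C fast to slow and cardiac, Tnnt2 to Tnnt1, Tnni1 to Tnnt1 and troponin I to troponin T, and overlap in the other ratios drawn.

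The partners of troponin on the thin filament were read from a list of 14 actins, tropomyosins, tropomodulins, leiomodins, nebulin, capping proteins and kelch proteins. Of these, 4 were lower and none higher, and 12 had a negative fold change, with a median of -0.18. The 4 were Acta1, the main actin of adult skeletal muscle (-0.52, adjusted p = 0.00104), Actc1, the cardiac actin of developing muscle (-0.47, 0.00129), Lmod2, a leiomodin of the pointed end (-0.35, 0.00517), and Klhl40, which stabilises thin filament proteins (-0.38, 0.00848), all by edgeR. Of 11 genes of excitation-contraction coupling and calcium binding, 2 were lower, Cacna1s, the voltage sensor of the T-tubule (-0.36, adjusted p = 0.00527), and Jph2, a junctophilin (-0.29, 0.0199), and the median was -0.021.

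Fast-fibre and slow-fibre genes other than troponins were listed as companions of the isoforms. Of 14 fast-fibre genes, 3 were lower, 1 was higher and 10 did not pass, with a median of -0.15. The lower ones were Mylpf, the regulatory light chain of fast muscle (-0.48, adjusted p = 0.000943), Eno3, the muscle enolase (-0.27, 0.0370), and Myl1, an essential light chain (-0.26, 0.0475), and the higher one was Actn3, the alpha-actinin of fast Z-discs (0.33, 0.0149). Of 12 tested slow-fibre genes, 5 were lower, none higher and 7 did not pass, with a median of -0.29. They included Ankrd2, a stretch-responsive ankyrin repeat protein, with 263 and 247 counts in control and 81 and 90 in EDA-A2 (-1.63), Csrp3, the muscle LIM protein (-0.95), Myh7, the slow myosin heavy chain (-0.86, adjusted p = 0.000169), and Myh7b (-0.66, 0.000190). By summed CPM, the log2 change was -0.28 for the fast-fibre genes and -0.34 for the slow-fibre genes. The difference between the lists was not tested.

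All 5 developmental sarcomere genes listed were lower, with a median of -0.38. Among them were Myh3 and Myh8, the embryonic and perinatal myosin heavy chains, at -0.57 and -0.38, and Mybph, a myosin-binding protein, at -0.34, while Actc1 is also in the thin filament list. Without control replicate 1 or control replicate 2, edgeR called no gene in any of these lists, as in the whole table. Some of the calls in these lists were also lost without EDA-A2 replicate 1 or without EDA-A2 replicate 2.

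**Figure D5:**
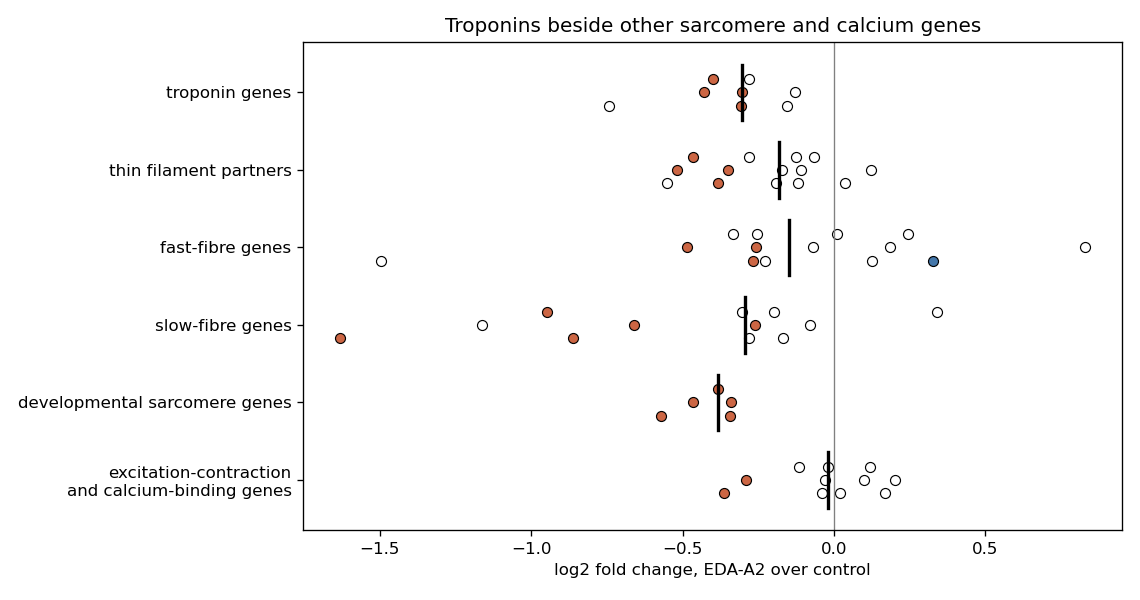
Log2 fold change (EDA-A2 against control) of every tested gene in the troponin group and the 5 companion lists, with filled points for an adjusted p under 0.05 and a black bar for each median. The bar stands at -0.30 for the troponin genes, -0.29 for slow-fibre genes, -0.15 for fast-fibre genes and -0.38 for developmental genes.

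The 8 genes lie at 5 places in the genome, and 6 of them form 3 pairs of a troponin I and a troponin T gene. Tnni1 and Tnnt2 lie 25.0 kb apart on chromosome 1, Tnni2 and Tnnt3 50.5 kb apart on chromosome 7, and Tnni3 and Tnnt1 1.92 kb apart on chromosome 7, each pair on 1 strand. Both genes of the first pair were called lower, 1 gene of the second and neither of the last. Tnni3 and Tnnt1 were the closest pair, and had control means of 45.2 ± 17.3 and 26114 ± 340.2 normalized counts (SD, n = 2).

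The 16 tested neighbouring or overlapping genes that are not troponins had a median log2 fold change of -0.054. None was called by edgeR or by DESeq2, and 1 had an unadjusted p under 0.05. They included Lad1, which lies between Tnni1 and Tnnt2 and had only 25 to 37 counts (0.39, SE 0.31, adjusted p = 0.631 by edgeR). They also included Lsp1, between Tnni2 and Tnnt3 (-0.025). Ube2c, over Tnnc2, had -0.19 (adjusted p = 0.341 by edgeR), and Nisch, which overlaps Tnnc1 on the opposite strand with no shared exon base and had 17366 to 17726 counts, had -0.047. A noncoding gene over Tnnt1, Gm73143, was not analysed here.

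Patterns over the 4 libraries were compared by the Euclidean distance between centred log2 normalized counts, over the 7 members that averaged 1000 or more and the 5643 other protein-coding genes that did. As descriptions, Tnnt1 and Tnnt3 were near each other at a distance of 0.041, and 8 of the 5643 genes were nearer to Tnnt1 than Tnnt3 was. Tnni2 and Tnnc1 were at 0.065 and Tnnt2 and Tnnc1 at 0.076, while Tnni1 and Tnnc2 were at 0.127 and the farthest pair, Tnnt1 and Tnnc2, at 0.343. The 2 closest pairs each joined a slow with a fast gene. The nearest genes outside the group were Asb5, Rab40b and Limch1 for Tnni1, Lpar1, Ptpn12 and Prune2 for Tnni2, Map1s, Tuba1c and Klhl31 for Tnnt1, Dlgap4, Nab2 and Synpo2l for Tnnt2, Aqr, Arf2 and Anapc13 for Tnnt3, Lrp4, Dok7 and Ttn for Tnnc1, and Atf5, Tnfrsf12a and Rrp12 for Tnnc2.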

How the data were processed

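RNA from mouse primary myotubes, 2 control and 2 EDA-A2 libraries, was analysed from the counts of read pairs per Ensembl gene that the authors deposited, without normalization or pooling. The submitters' processing notes name FastQC 0.11.9, MultiQC 1.12, Trim Galore 0.6.5, STAR 2.7.3a, HTSeq 0.11.1 and GRCm39. The annotation release and the strand option are not given in the sources used here. HTSeq's summary lines, 12.2 to 13.0% of the pairs, were left out. GENCODE M39 matched 52610 of the 53647 identifiers and gave symbols and positions.

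The edgeR quasi-likelihood test (version 4.0.16, R 4.3.3) was applied with TMM factors and condition as the single term, after filterByExpr (min.count 10, min.total.count 15), and p-values were adjusted by Benjamini-Hochberg over all genes tested, with a threshold of 0.05. Normalized counts are counts divided by the TMM-scaled library size relative to its mean. Ratios used exact permutation tests over libraries. The steps were tested on simulated data. The troponin genes, the companion lists and the markers were chosen with earlier results of these data known. Named genes were the 8 troponin genes, up to 4 called genes per list and direction by smallest p, their neighbours, and the 3 genes nearest in pattern. Alternatives were other scalings, filters and tests (DESeq2 1.42.0), a replicate block, other lengths, and leaving out each library.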

Additional observations from a re-analysis of the deposited data

How the results depend on the processing

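With 2 libraries per condition, all 8 troponin fold changes stayed negative under every alternative, but the calls did not. Of 4 genes called, 4 were called with DESeq2 size factors, 3 with robust estimation, 2 with upper quartile factors and 2 with total counts. With at least 10 counts in every library 2 were called, and edgeR with no filter called 0, while the DESeq2 test called 5. Without each library in turn the number ranged from 0 to 3. With the lone library assumed to vary like the others, log2 fold changes ranged from -0.48 to -0.37 for Tnni1, -0.43 to -0.17 for Tnni2, -0.38 to -0.22 for Tnnt2 and -0.53 to -0.25 for Tnnc2. Calls were lost with no filter for Tnni1 (-0.43), Tnni2 (-0.31), Tnnt2 (-0.31) and Tnnc2 (-0.41), with upper quartile factors for Tnni2 (-0.30) and Tnnt2 (-0.30), with total counts for both (-0.25 each), with at least 10 counts for both (-0.31 and -0.30), and with robust estimation for Tnni2 (-0.31). Tnnc1 gained a call with DESeq2 (-0.28). The cause was not tested. Total counts moved the split over all genes from 371 higher and 323 lower to 485 and 194. With no filter 86 of 25545 genes were called, 22 of them lower. Called lower over all genes were 333 with DESeq2 size factors, 313 with robust estimation and 292 with upper quartile factors, of 15173 each. With at least 10 counts 309 of 14330 were called lower, and the DESeq2 test called 271 lower among the 25545 genes with a p-value. The fast ratio of troponin T was 0.091 with no length correction, and that of all subunits 0.014 with coding lengths and 0.058 with none.

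Whether the replicate numbers mark pairs is not known, as the labels do not say that a number marks a shared batch. Differences between replicates correlated at 0.057 across conditions over all genes tested, low counts included, which cannot settle it. The replicate block called 5 of the 8 genes, with Tnnc1 at -0.28, and 1066 genes in all.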
